A study of Mus musculus with 6 samples.

Results

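The nuclear-encoded subunits of respiratory complexes II, III, IV and V were examined in interscapular brown fat of mice kept in the cold for 24 h and of control mice. Members were the protein-coding nuclear genes whose GENCODE M21 symbol starts with Sdha, Sdhb, Sdhc, Sdhd, Uqcr, Cox4, Cox5, Cox6, Cox7, Cox8 or Atp5, together with Cyc1 and Cycs. The symbols matched 54 gene identifiers, against 21730 genes with a read in the whole series. The prefix Sdha also takes in the 4 complex II assembly factors Sdhaf1 to Sdhaf4, and the prefix Cox7 takes in Cox7a2l, a supercomplex assembly factor. Of the 54 members, 51 passed the filter on low counts. The other 3 were Cox7b2, with 1 read over all 6 libraries together, Cox8c, a testis isoform with 0 reads, and a second gene identifier for Atp5o with 0 reads.

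The cold group was 3 male wild type C57BL/6N mice of 20 weeks, housed alone at 4 °C for 24 h. The ctrl group was 3 mice of the same strain, sex and age, kept at 22 to 24 °C; whether they too were housed alone is not given in the sources used here, so single housing and cold cannot be told apart. Poly(A) RNA of each mouse gave 1 Oxford Nanopore direct cDNA library, a long-read protocol without PCR, and each library was run on 2 flow cells. Reads were counted per annotated transcript and summed here over flow cells and over each gene, so n is the number of mice.

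The respiratory chain of the inner mitochondrial membrane passes electrons from succinate (complex II) through ubiquinone, complex III and cytochrome c to complex IV, which reduces oxygen, and the proton gradient built on the way drives complex V, the ATP synthase. In brown fat the uncoupling protein UCP1 lets protons return without making ATP, so that respiration releases heat, and this tissue is known for a high content of respiratory chain and a low content of ATP synthase. Several complex IV subunits exist as a widely expressed form and a form of heart and skeletal muscle that brown fat shares, among them Cox8b beside Cox8a and Cox7a1 beside Cox7a2. Subunit c, which builds the ring of the ATP synthase, is encoded by 3 genes, Atp5g1, Atp5g2 and Atp5g3, that give the same mature protein, and a low level of Atp5g1 has been linked to the low ATP synthase content of brown fat.

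The libraries held 1657985 to 2082203 reads in cold mice and 1829442 to 2238056 reads in ctrl mice, and 3 reads corresponded to between 1.34 and 1.81 CPM. Member genes took 6.87 to 7.02% of the reads in cold mice and 7.09 to 7.22% in ctrl mice. Mitochondrially encoded genes took 27.6 to 29.0% in cold mice and 29.7 to 32.5% in ctrl mice, and the member calls were 4 higher and 15 lower both with these genes in the fit and with them left out of it. Brown adipocyte markers were abundant, with Ucp1 at 13810 ± 125 CPM in cold mice and 10670 ± 840 CPM in ctrl mice (SD, n = 3 each). The RNA protocol in the labels names a white fat depot, whereas every sample's tissue is given as interscapular brown fat. In a bulk tissue, fewer cells of a type and less RNA per cell cannot be told apart.

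Promoter sequences are shown for Cycs, the member with the smallest adjusted p-value, and for Cox8b and Cox8a, the isoform pair whose members both fell. Each run is the 250 bases before the RefSeq start (GRCm38.p6), read 5′ to 3′ on the gene's minus strand, and capitals mark a cAMP response element where a match was found.
Cycs promoter, chr6:50566570-50566819: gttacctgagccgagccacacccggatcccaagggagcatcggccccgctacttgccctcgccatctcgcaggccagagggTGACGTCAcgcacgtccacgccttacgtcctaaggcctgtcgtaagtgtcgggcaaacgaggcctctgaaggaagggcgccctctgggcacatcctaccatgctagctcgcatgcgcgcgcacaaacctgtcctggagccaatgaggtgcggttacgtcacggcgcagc
Cox8b promoter, chr7:140900447-140900696: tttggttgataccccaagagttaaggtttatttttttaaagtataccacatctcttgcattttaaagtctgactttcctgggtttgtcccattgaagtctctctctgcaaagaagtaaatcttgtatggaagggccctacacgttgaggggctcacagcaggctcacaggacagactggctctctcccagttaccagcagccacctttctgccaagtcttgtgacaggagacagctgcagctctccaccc
Cox8a promoter, chr19:7217617-7217866: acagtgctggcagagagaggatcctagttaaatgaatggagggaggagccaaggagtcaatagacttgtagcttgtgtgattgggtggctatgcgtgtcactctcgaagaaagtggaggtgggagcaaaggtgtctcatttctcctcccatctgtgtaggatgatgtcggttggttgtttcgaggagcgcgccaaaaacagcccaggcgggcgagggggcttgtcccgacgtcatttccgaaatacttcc
The letters TGACGTCA stood 169 bases before the Cycs start, and neither Cox8 window held a match to any of the motifs searched. RefSeq promoters were found for 41 members. On either strand of their 250 bases, 10 (24.4%) held CCGGAAG, the core of the GABP motif, against 6.91% of all 32851 promoters. The NRF1 motif, written as GCGCA, any base and GCGC, was in 6 (14.6%), against 3.74% of all promoters. TGACGTCA was in 2 members, Cycs and Uqcrfs1 (4.88%), against 1.55%. The YY1 motif AANATGGCG and the ERR motif TCAAGGTCA were each in 1 member (2.44%), against 1.12% and 0.387% of all promoters. None of these motifs is contained in another. A match describes letters in this window and is not evidence of binding. Members without an entry were Atp5a1, Atp5mpl, Cox4i1, Cox4i2, Cox6a2, Cox6c, Cox8c, Cyc1, Sdhc, Uqcrb, Uqcrc2 and Uqcrq.

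Whether the mRNAs of these subunits move with the cold was asked gene by gene. Cycs, which encodes the mobile electron carrier cytochrome c, rose in the cold while 15 genes fell, by 1.14-fold to 1.62-fold, and 32 were not called. The genes called higher were Cycs, Cox4i2, Sdhaf4 and Atp5mpl. The genes called lower were Sdha, Sdhb, Sdhaf1, Cyc1, Uqcr10, Uqcrc1, Uqcrq, Cox5b, Cox6a1, Cox6c, Cox7b, Cox8a, Cox8b, Atp5c1 and Atp5k. Calls are from edgeR's quasi-likelihood test across all 8684 tested genes at a Benjamini-Hochberg adjusted p of 0.05. Over all tested genes 20.0% were called, 10% higher and 10% lower in the cold. Among the 51 tested members, 37.3% were called. The 2 shares differ in depth, since 43 of the 51 members had at least 1000 reads, against 1246 of the 8684 tested genes. Small changes are more easily called at high depth, and the share called among genes of that depth was not computed. The median log2 fold change, cold over ctrl, was -0.09 over the tested members and 0.00 over all tested genes, and it was negative in 37 of 51 members (72.5%) against 49.9% of all tested genes. All 3 cold mice were below all 3 ctrl mice in 25 tested members and above them in 7, where 17.8% and 17.3% of all tested genes behaved so (35.1% either way).

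The changes were small, and counts varied little between mice of a group. In the 43 members with at least 1000 reads, the log2 fold change ran from -0.42 (Cox8b) to 0.44 (Cycs). The median coefficient of variation among mice was 4.05% in the cold group and 3.58% in the ctrl group for these members, against 6.56% and 6.24% for all genes of that depth. Log2 fold changes of 48 members from flow cell 1 alone and from flow cell 2 alone were correlated (Pearson r = 0.949, Spearman rho = 0.899), against r = 0.812 and rho = 0.69 over 5342 genes; both runs draw on the same libraries. Across the 43 members, the log2 fold change had an r of 0.119 with the log10 length of the most-read transcript, against 0.111 over 1246 genes. DESeq2 called 2 members higher (Cycs, and Atp5g1, a gene that edgeR did not call) and 9 lower, where it called 5.67% and 5.06% of all genes (10.7% either way). Of the 19 members called by edgeR, 9 were called under all 15 alternatives, namely Cycs, Uqcrc1, Uqcrq, Cox6a1, Cox7b, Cox8a, Cox8b, Atp5c1 and Atp5k.

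**Figure D1:**
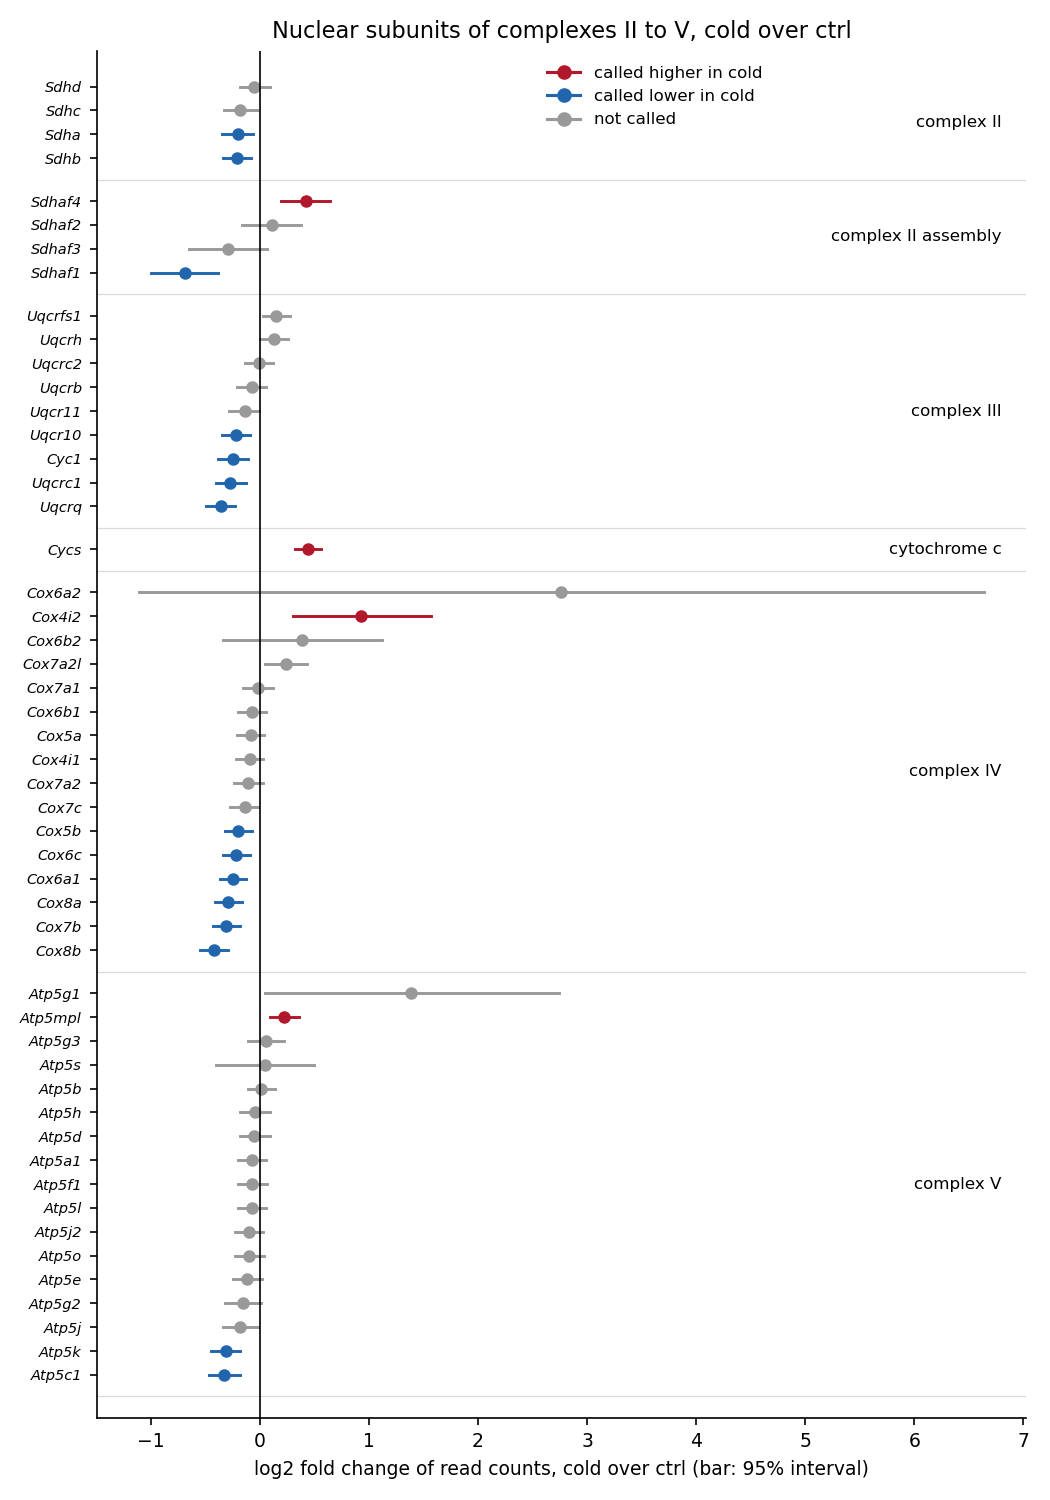
Log2 fold change of read counts (x axis, cold over ctrl) of the 51 tested members, grouped by complex, with 95% intervals; red marks genes called higher in the cold, blue genes called lower and grey genes not called. Most points lie between -0.42 and 0.44, and the wide bars belong to Cox6a2 (2.76) and Atp5g1 (1.39), which vary among cold mice.

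Summed over the genes of a complex, the scaled read counts (CPM) of complexes II, III, IV and V were lower in every cold mouse than in every ctrl mouse. The TMM factors behind these CPM were 1.006, 1.02 and 1.05 in cold mice 4, 11 and 15. In ctrl mice 2, 9 and 14 they were 0.956, 0.998 and 0.972. Such factors lower the cold values relative to the ctrl values, so the gaps depend in part on this scaling. Whether the groups separate without it was not tested. Complex IV summed to 31320, 30120 and 29060 CPM in the cold mice and to 35090, 33890 and 34480 CPM in the ctrl mice. Complex II, without its assembly factors, averaged 3745 ± 126 CPM in the cold and 4169 ± 108 CPM in ctrl. Complex III averaged 12550 ± 380 and 13510 ± 178 CPM in cold and ctrl mice, and complex V 18680 ± 304 and 19600 ± 305 CPM (SD, n = 3 each). Complex IV had 6 members called lower and 1 called higher of 16 tested (43.8%), complex III 4 lower of 9 (44.4%), complex II 2 lower of 4 (50%), and complex V 2 lower and 1 higher of 17 (17.6%), against 20.0% of all tested genes. The medians were -0.10 for complex IV, -0.14 for complex III, -0.19 for complex II and -0.07 for complex V.

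**Figure D2:**
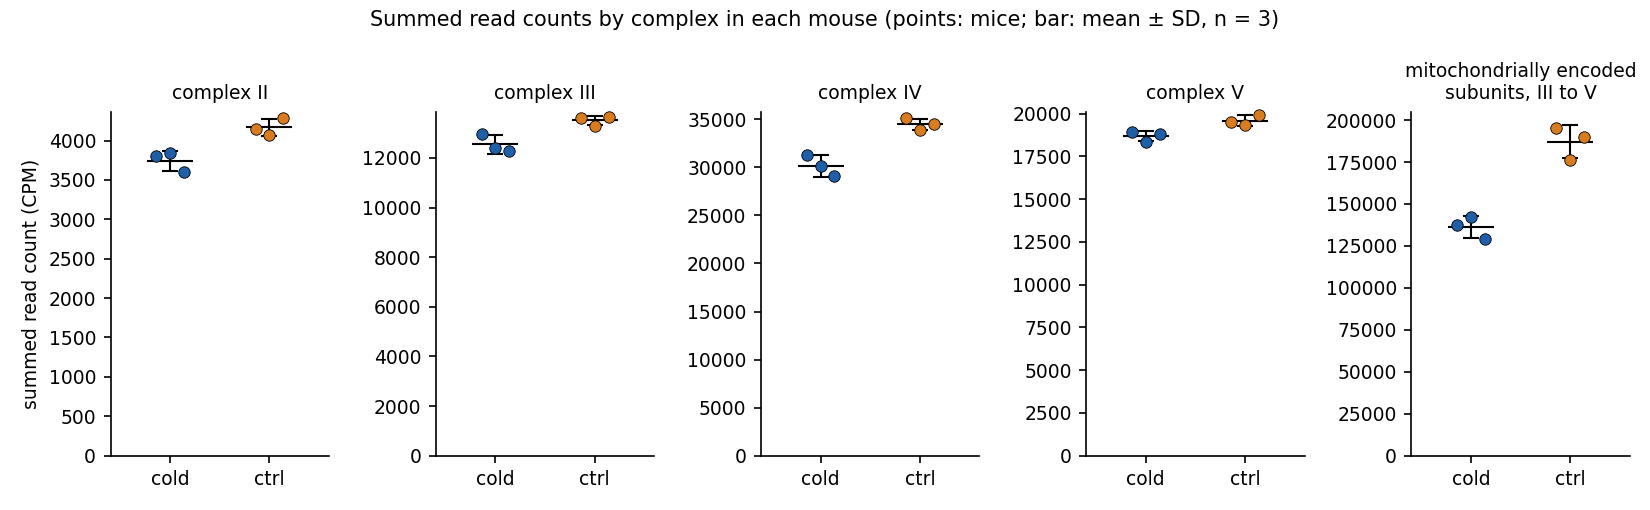
Summed read counts (y axis, CPM, from 0) of the nuclear members of each complex and of the mitochondrially encoded subunits of complexes III to V; each point is 1 mouse, and the bar is the mean with its SD (n = 3). In each panel the cold mice lie below the ctrl mice, by the widest relative gap in the mitochondrially encoded subunits.

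Complex II is succinate dehydrogenase, the only complex of the chain with no mitochondrially encoded subunit. Sdhb, its iron-sulfur subunit (chromosome 4, 140961203 to 140979193, GRCm38, as all gene coordinates here), had 1189, 1160 and 1149 CPM in cold mice 4, 11 and 15 and 1328, 1322 and 1385 CPM in ctrl mice 2, 9 and 14. Every cold mouse was lower than every ctrl mouse, and the gene fell 1.15-fold (log2 fold change -0.21, SE 0.064, edgeR adjusted p = 0.0203). Sdha, the flavoprotein subunit (chromosome 13, 74322254 to 74350280), had 851, 947 and 827 CPM in cold mice and 947, 1016 and 1056 CPM in ctrl mice, with cold mouse 11 level with ctrl mouse 2. It fell 1.15-fold (edgeR adjusted p = 0.0416). Both calls were lost when certain mice were left out. For Sdhb, the adjusted p was 0.0574, 0.0613 and 0.0532 without cold mouse 4, 11 or 15, and 0.0539 and 0.113 without ctrl mouse 2 or 14, while the call was kept without ctrl mouse 9 (0.0229; range over alternatives 0.0126 to 0.13). For Sdha it was 0.168 and 0.15 without cold mouse 4 or 15, and 0.0697 and 0.202 without ctrl mouse 9 or 14, while the call was kept without cold mouse 11 (0.0176) or ctrl mouse 2 (0.0425; range 0.0006 to 0.219). The membrane anchors Sdhc and Sdhd were not called, at log2 fold changes of -0.18 and -0.05, although Sdhc was called lower without ctrl mouse 9 (adjusted p = 0.045).

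The complex II assembly factors went in different directions. Sdhaf1, which helps load the iron-sulfur clusters of Sdhb (chromosome 7, 30321406 to 30323895), had 29.5, 33.1 and 23.9 CPM in cold mice and 50.9, 43.4 and 46.5 CPM in ctrl mice. It fell 1.62-fold, the largest fall among the members (log2 fold change -0.69, SE 0.15, edgeR adjusted p = 0.00108), and it was not called on flow cell 2 alone (adjusted p = 0.145; range over alternatives 0.000232 to 0.145). On the same chromosome its neighbours in the member list, Cox7a1 and Cox6b1, had log2 fold changes of -0.02 and -0.07 and were not called. Sdhaf4, which helps Sdha join Sdhb (chromosome 1, 23995939 to 24005656), had 99.5, 123 and 108 CPM in cold mice and 78.7, 82.2 and 86.6 CPM in ctrl mice. Here every cold mouse was higher, and the gene rose 1.33-fold (edgeR adjusted p = 0.00624); leaving out cold mouse 11 gave 0.0616 (range over alternatives 0.00475 to 0.168). Sdhaf2, which attaches the flavin to Sdha, and Sdhaf3, another iron-sulfur factor, were not called, at 0.11 and -0.29.

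Complex III, the cytochrome bc1 complex, hands electrons from ubiquinol to cytochrome c. Its smallest adjusted p was that of Uqcrq, a small subunit next to cytochrome b (chromosome 11, 53427922 to 53430831), with 1833, 1767 and 1608 CPM in cold mice and 2272, 2273 and 2134 CPM in ctrl mice. The groups were well apart, and the gene fell 1.28-fold (log2 fold change -0.36, SE 0.065, edgeR adjusted p = 0.000127). Uqcrc1, a core subunit (chromosome 9, 108936633 to 108949623), had 951, 989 and 922 CPM in cold mice and 1100, 1146 and 1201 CPM in ctrl mice and fell 1.2-fold (edgeR adjusted p = 0.00364). Its partner core subunit Uqcrc2 was not called, at 999 ± 32.8 CPM in the cold and 1007 ± 23.4 CPM in ctrl (SD, n = 3 each; log2 fold change -0.01, 95% interval -0.14 to 0.12). The difference between these partners was not tested as such, and Uqcrc2 overlaps Pdzd9 on the opposite strand, whose 914 reads come to 7.83% of its own.

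Of the nuclear electron-carrying subunits of complex III, Cyc1 was called lower and Uqcrfs1 was not called. Cyc1, cytochrome c1 (chromosome 15, 76343523 to 76346260), had 1055, 955 and 1024 CPM in cold mice and 1209, 1187 and 1207 CPM in ctrl mice. It fell 1.19-fold (edgeR adjusted p = 0.00674), and leaving out cold mouse 11 gave an adjusted p of 0.0541 (range over alternatives 0.00319 to 0.0785). Uqcrfs1, the Rieske iron-sulfur protein (chromosome 13, 30540308 to 30545362), had 2006, 1966 and 1868 CPM in cold mice and 1748, 1687 and 1814 CPM in ctrl mice. All cold mice were above all ctrl mice, yet the gene was not called (log2 fold change 0.15, SE 0.063, edgeR adjusted p = 0.0848). Of the small subunits, Uqcr10 fell 1.16-fold (edgeR adjusted p = 0.0141; 0.0693 without ctrl mouse 14, range 0.00393 to 0.115), and Uqcr11, Uqcrb and the hinge protein Uqcrh were not called, at -0.14, -0.07 and 0.13, although Uqcr11 was called lower with protein-coding transcripts alone (-0.19, edgeR adjusted p = 0.042), which held 51.7% of its reads.

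Cytochrome c, which carries electrons from complex III to complex IV, had the smallest adjusted p of all members. Cycs (chromosome 6, 50562563 to 50566538) had 3412, 3341 and 3400 CPM in cold mice and 2513, 2491 and 2475 CPM in ctrl mice. The values within each group lay close together and the groups were far apart. The gene rose 1.36-fold (log2 fold change 0.44, SE 0.059, edgeR adjusted p = 1.57e-06), and its log2 fold change ran from 0.42 to 0.45 over all 15 alternatives. Gm10053, an annotated gene that shares 946 nt at 99.9% identity with Cycs, had 1743 reads, or 5.11% of those of Cycs, and with the reads of such copies added the log2 fold change was 0.43. Nearly all Cycs reads (99.9% in cold mice and 99.8% in ctrl mice) were on the protein-coding transcript Cycs-202, of 3123 nt.

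**Figure D3:**
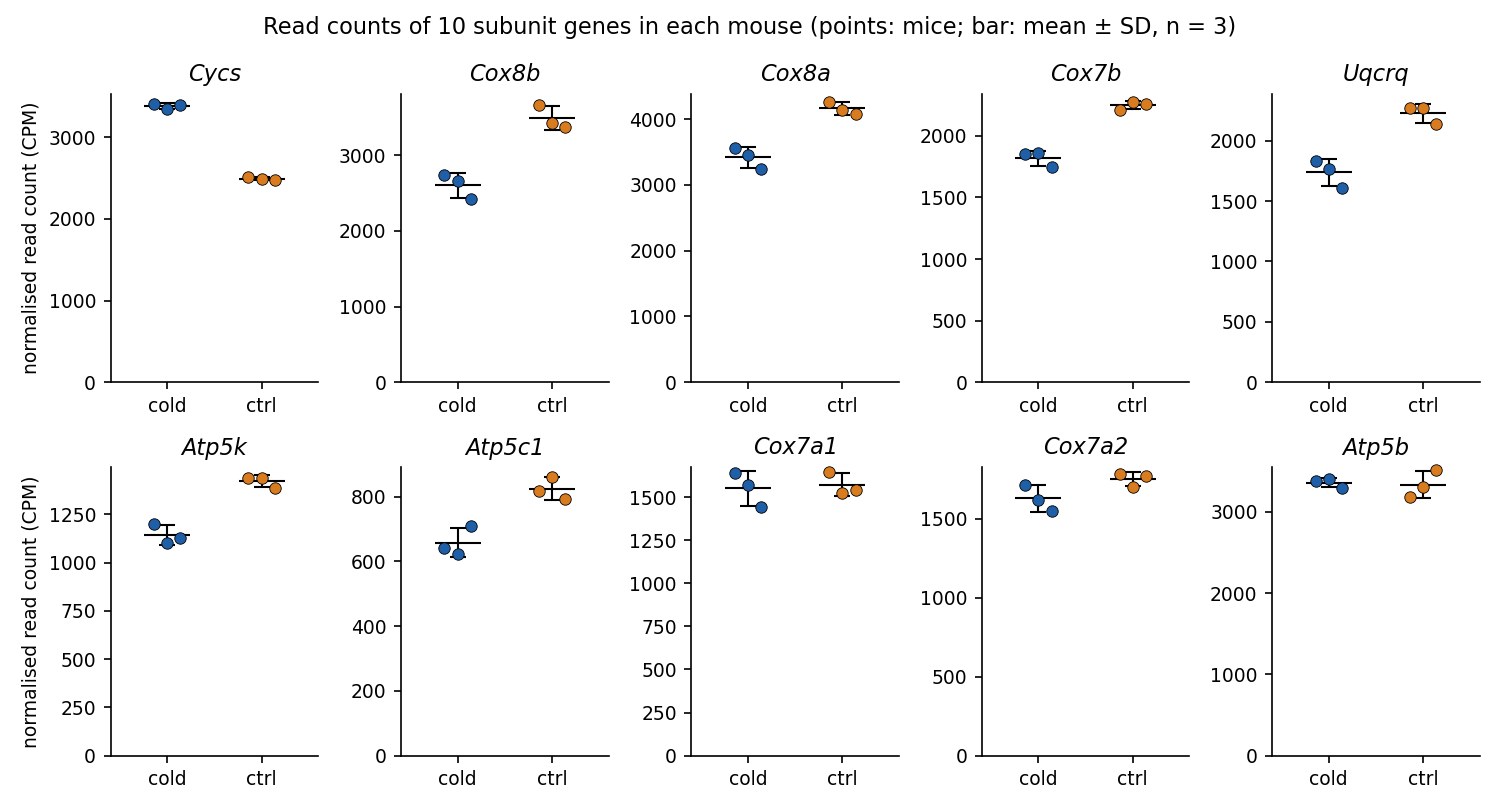
Normalised read counts (y axis, CPM, from 0; scales differ between panels) of 10 members, with 1 point per mouse and the mean with its SD (n = 3 per group). Cycs is higher in all cold mice, Cox8b, Cox8a, Cox7b, Uqcrq, Atp5k and Atp5c1 are lower in all of them, and Cox7a1, Cox7a2 and Atp5b overlap.

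Complex IV, cytochrome c oxidase, supplied the most abundant members. For levels per kb, the CPM of each transcript was divided by its own length and summed over the gene. On this scale Cox8b stood first in ctrl mice and in cold mice, ahead of Cox8a, Cox6a1, Cox6c, Cox7c and Cox6b1. Cox8b had 7233 ± 458 CPM per kb in the cold and 9699 ± 427 in ctrl. Cox8a and Cox6a1 did not differ beyond their spread, at 6219 ± 286 and 6248 ± 207 CPM per kb in cold mice and 7580 ± 172 and 7450 ± 23.1 in ctrl mice (SD, n = 3 each). The genes called lower were small structural subunits around the mitochondrially encoded core. Cox7b (chromosome X, 106015700 to 106022450) had 1849, 1857 and 1746 CPM in cold mice and 2213, 2276 and 2255 CPM in ctrl mice and fell 1.24-fold (log2 fold change -0.31, edgeR adjusted p = 0.000446). Cox6a1, the widely expressed form of subunit VIa (chromosome 5, 115345642 to 115348981), had 3664, 3657 and 3456 CPM in cold mice and 4268, 4291 and 4285 CPM in ctrl mice and fell 1.19-fold (edgeR adjusted p = 0.00208). In both genes the groups were separated by several times the spread within a group.

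Apart from the Cox8 pair, which is described below, the remaining complex IV calls were less firm. Cox5b, a zinc-binding subunit (chromosome 1, 36691449 to 36693681), had 2128, 2087 and 2026 CPM in cold mice and 2474, 2296 and 2375 CPM in ctrl mice and fell 1.14-fold (edgeR adjusted p = 0.0234). Leaving out cold mouse 4, 11 or 15 gave adjusted p-values of 0.0627, 0.0621 and 0.0776, and leaving out ctrl mouse 2 or 14 gave 0.123 and 0.0835 (range over alternatives 0.0134 to 0.229). Cox6c fell 1.16-fold (edgeR adjusted p = 0.0115), and leaving out cold mouse 11, ctrl mouse 2 or ctrl mouse 14 gave adjusted p-values of 0.0583, 0.0738 and 0.0671 (range over alternatives 0.00472 to 0.196). Cox5a, a matrix-side subunit, was not called, at 1878, 1785 and 1803 CPM in cold mice and 1925, 1882 and 1989 CPM in ctrl mice (log2 fold change -0.08). Cox6b1 and Cox7c were also not called, at -0.07 and -0.14. The reads of Cox7c are uncertain, since Gm10012, a copy with 99.4% identity, had 8140 reads, or 22.71% of those of Cox7c.

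Both Cox8 isoforms fell, the muscle-type Cox8b by 1.34-fold and the widely expressed Cox8a by 1.22-fold. Cox8b (chromosome 7, 140898945 to 140900446) had 2738, 2654 and 2420 CPM in cold mice and 3667, 3428 and 3379 CPM in ctrl mice. The groups were far apart (log2 fold change -0.42, SE 0.064, edgeR adjusted p = 9.54e-06). Cox8a (chromosome 19, 7215153 to 7217616) had 3554, 3449 and 3247 CPM in cold mice and 4267, 4145 and 4081 CPM in ctrl mice, again without overlap (log2 fold change -0.29, SE 0.06, edgeR adjusted p = 0.000771). Cox8b made up 43.5, 43.5 and 42.7% of the Cox8 reads in cold mice and 46.2, 45.3 and 45.3% in ctrl mice. The share was lower in every cold mouse, by 2.36 percentage points (43.2 ± 0.46% in the cold and 45.6 ± 0.54% in ctrl, SD, n = 3 each; exact two-sided permutation p = 0.1, 0.2 adjusted over the 8 shares compared). With 3 mice against 3, 0.1 is the smallest p this test can give. Per length, Cox8b made up 53.8% in the cold and 56.1% in ctrl.

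Neither Cox7a1 nor Cox7a2 was called, while the muscle-type share was higher in cold mice. Cox7a1 (chromosome 7, 30184144 to 30186078) had 1639, 1569 and 1443 CPM in cold mice and 1648, 1524 and 1543 CPM in ctrl mice, with groups that overlapped (log2 fold change -0.02, 95% interval -0.15 to 0.12). Cox7a2 (chromosome 9, 79755361 to 79759878) had 1717, 1623 and 1549 CPM in cold mice and 1787, 1701 and 1771 CPM in ctrl mice, again with overlap (log2 fold change -0.11, 95% interval -0.24 to 0.03). The share of Cox7a1 in their summed reads was 48.8, 49.2 and 48.2% in cold mice and 48.0, 47.3 and 46.6% in ctrl mice. Each cold mouse was higher, by 1.48 percentage points on average (exact two-sided permutation p = 0.1, adjusted 0.2). The share of Cox8b was lower and that of Cox7a1 higher in cold mice; the difference between the families was not tested. Cox7a2l, whose protein is shortened and unstable in C57BL/6 mice, had 221 ± 18.9 CPM in cold mice and 187 ± 11.5 CPM in ctrl mice (log2 fold change 0.24, edgeR adjusted p = 0.0629), and it was called higher without cold mouse 11 (adjusted p = 0.0421).

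**Figure D4:**
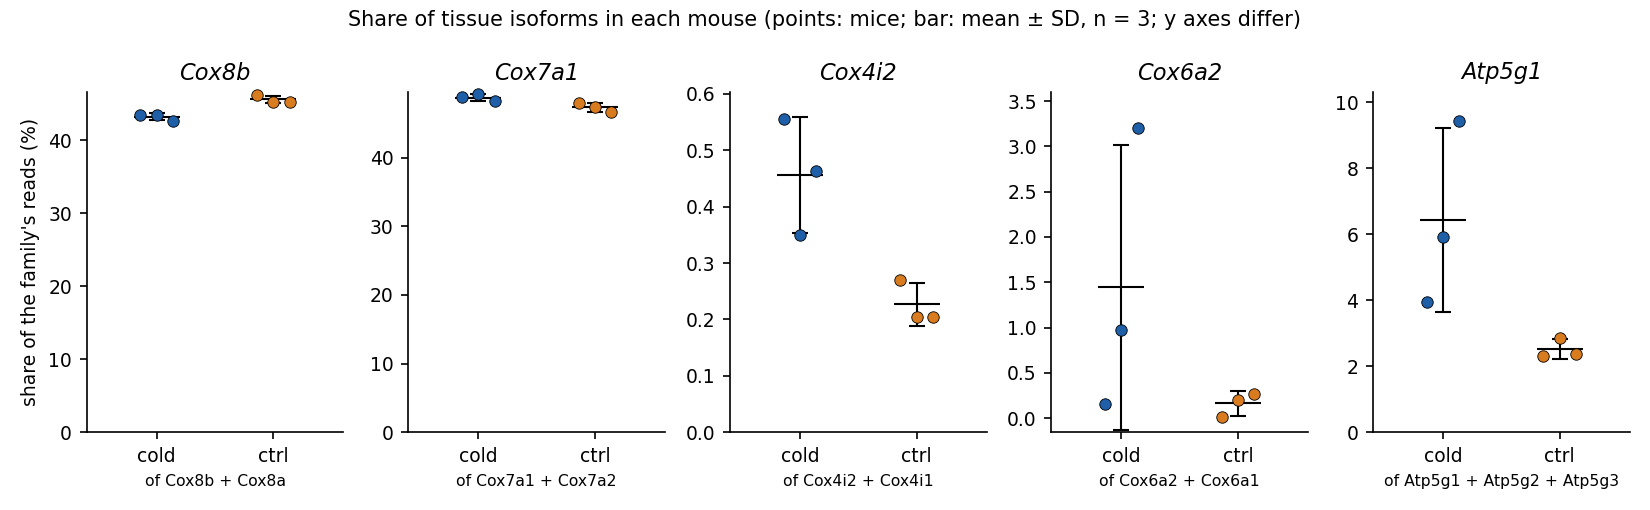
Share of an isoform in the reads of its family (y axis, %; scales differ between panels), with 1 point per mouse and the mean with its SD (n = 3 per group). Cox8b is lower in all cold mice, Cox7a1, Cox4i2 and Atp5g1 are higher in all of them, and Cox6a2 overlaps, with 1 cold mouse at 3.2%.

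Cox4i2, the form of subunit IV known from lung and from cells short of oxygen, was a trace beside its partner Cox4i1. It had 28, 16 and 19 reads in cold mice and 12, 10 and 11 reads in ctrl mice. All cold mice had more reads, and the gene rose 1.91-fold, to 10.9 ± 2.76 CPM in the cold against 5.72 ± 1.06 CPM in ctrl (SD, n = 3 each; log2 fold change 0.93, SE 0.31, edgeR adjusted p = 0.031). The call was lost without cold mouse 4 or 15 (adjusted p = 0.183 and 0.0677) and without ctrl mouse 9 or 14 (0.0929 and 0.109), in a range of 0.0185 to 0.201. Cox4i1 (chromosome 8, 120668222 to 120674207) had 2423, 2279 and 2381 CPM in cold mice and 2568, 2484 and 2494 CPM in ctrl mice and was not called (log2 fold change -0.09). Cox4i2 held 0.555, 0.35 and 0.463% of the reads of the pair in cold mice and 0.27, 0.205 and 0.205% in ctrl mice (exact two-sided permutation p = 0.1).

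Cox6a2 and Atp5g1 had the largest log2 fold changes of all members and neither was called. Cox6a2, the heart and muscle form of subunit VIa (chromosome 7, 128205435 to 128206387), had 12, 72 and 196 reads in cold mice 4, 11 and 15 and 1, 17 and 25 reads in ctrl mice 2, 9 and 14. The log2 fold change was 2.76 with an SE of 1.4 (edgeR adjusted p = 0.293). The 18 skeletal muscle markers, all of them with reads, summed to 399, 1722 and 4215 CPM in the same cold mice and to 210, 585 and 856 CPM in the ctrl mice. Sorted by Cox6a2 or by the muscle markers, the 6 mice came in the same order. None of the 16 tested muscle markers was called, and their median log2 fold change was 2.18. With their mean log2 CPM as a covariate, the log2 fold change of Cox6a2 was 0.27 (SE 0.32, edgeR adjusted p = 0.659). Cox6b2, a testis form of subunit VIb, was also a trace, with 42 reads in the cold mice and 32 in the ctrl mice, and was not called.

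Atp5g1 (chromosome 11, 96068852 to 96075670) had 68, 99 and 161 reads in cold mice 4, 11 and 15 and 34, 49 and 45 reads in ctrl mice 2, 9 and 14. Each cold mouse was above each ctrl mouse, and within the cold group the order followed the muscle markers. With the muscle covariate, the log2 fold change of Atp5g1 was 0.72 (SE 0.22), beside 1.39 (SE 0.5) without it. The number of Atp5g1 reads that came from muscle was not measured. The log2 fold change was 1.39 (SE 0.5, edgeR adjusted p = 0.149), and edgeR called it at 0.91 without cold mouse 15 (adjusted p = 0.00058), at 1.69 without cold mouse 4 (0.00508), at 1.06 on flow cell 2 alone (0.000992) and at 0.72 with the muscle covariate (0.0285). DESeq2 on all 6 mice also called it (log2 fold change 1.42, adjusted p = 0.0253; range over alternatives 0.00058 to 0.33). The other subunit c genes were not called. Atp5g2 had 346, 298 and 322 CPM in cold mice and 368, 353 and 354 CPM in ctrl mice, and Atp5g3 had 454, 490 and 578 CPM in cold mice and 460.0, 494 and 508 CPM in ctrl mice. Atp5g1 held 3.94, 5.92 and 9.44% of the reads of the 3 genes in cold mice and 2.32, 2.87 and 2.37% in ctrl mice (exact two-sided permutation p = 0.1). The most-read transcript of Atp5g1 has 4715 nt, against 731 nt for Atp5g2 and 723 nt for Atp5g3. Per length, Atp5g1 made up 4.48% in the cold and 1.08% in ctrl. A copy of Atp5g2, Gm10175, had 590 reads, or 14.93% of those of Atp5g2.

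**Figure D5:**
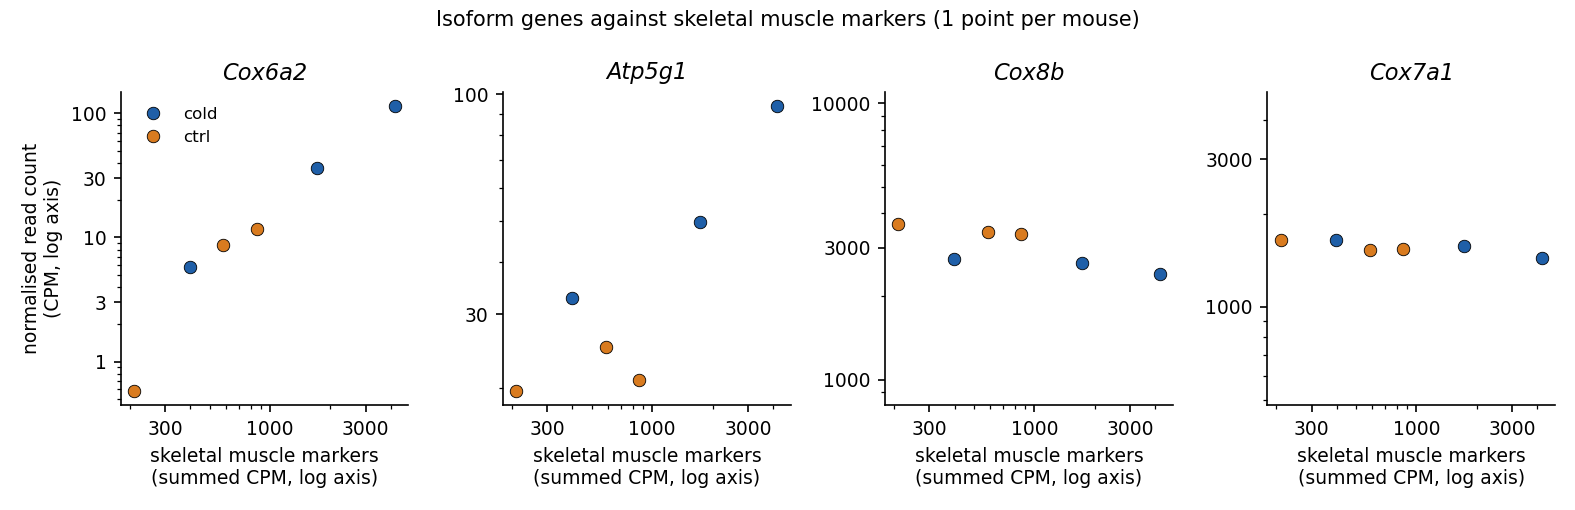
Normalised read counts (y axis, CPM, log axis) of Cox6a2, Atp5g1, Cox8b and Cox7a1 against the summed CPM of 18 skeletal muscle markers (x axis, log axis), with 1 point per mouse. Cox6a2 climbs with the markers across both groups, Atp5g1 within the cold mice, and Cox8b and Cox7a1 are at their lowest in the cold mouse with the most muscle marker reads.

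The muscle-type isoforms Cox8b and Cox7a1 did not follow the muscle markers upward. Cold mouse 15, with the most muscle marker reads, had the lowest Cox8b and the lowest Cox7a1 of all mice. With the muscle covariate the log2 fold change of Cox8b was -0.34 (edgeR adjusted p = 0.00315), that of Cox8a was -0.23 (0.043) and that of Cycs was 0.45 (0.000116). Under this covariate 3 members were called higher (Cycs, Cox4i2 and Atp5g1) and 9 lower.

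In complex V, the ATP synthase, 17.6% of 17 tested members were called, near the 20.0% over all tested genes. Its catalytic core subunits were not called. Atp5b, the beta subunit (chromosome 10, 128083273 to 128090391), had 3381, 3400 and 3297 CPM in cold mice and 3182, 3309 and 3511 CPM in ctrl mice, with the groups inside one another (log2 fold change 0.01, 95% interval -0.11 to 0.14). Atp5a1, the alpha subunit, had 2077, 2047 and 2131 CPM in cold mice and 2168, 2118 and 2276 CPM in ctrl mice (log2 fold change -0.07, 95% interval -0.20 to 0.06). Atp5c1, the gamma subunit that turns inside the catalytic head (chromosome 2, 10056016 to 10080510), had 640, 624 and 710 CPM in cold mice and 819, 861 and 792 CPM in ctrl mice, and fell 1.25-fold (log2 fold change -0.33, SE 0.072, edgeR adjusted p = 0.00113). Atp5d and Atp5e, the delta and epsilon subunits of the same head and stalk, were not called, at -0.05 and -0.12.

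In the membrane part and the peripheral stalk, only Atp5k and Atp5mpl were called among the members tested, in opposite directions. Atp5k, the dimer-forming subunit e (chromosome 5, 108433244 to 108434448), had 1200.0, 1102 and 1128 CPM in cold mice and 1438, 1441 and 1387 CPM in ctrl mice and fell 1.24-fold (log2 fold change -0.31, SE 0.065, edgeR adjusted p = 0.000564). Its neighbour in the dimer, subunit g (Atp5l), was not called, at -0.07. Atp5mpl, a small proteolipid-associated subunit (chromosome 12, 111961375 to 111966977), had 1062, 1042 and 1045 CPM in cold mice and 913, 861 and 926 CPM in ctrl mice and rose 1.17-fold (edgeR adjusted p = 0.0151). Without cold mouse 4 the adjusted p became 0.0731 and without ctrl mouse 9 0.0822 (range over alternatives 0.0153 to 0.129). The stalk subunits Atp5f1, Atp5h, Atp5j and Atp5o and the membrane subunit Atp5j2 lay between -0.18 (Atp5j) and -0.04 (Atp5h) and were not called, although Atp5j was called lower without cold mouse 15 (adjusted p = 0.0121) and on flow cell 1 alone (0.0483). Atp5s, a low-abundance factor, had 87 reads in the cold mice and 85 in the ctrl mice.

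Long reads also gave the transcripts behind each gene. Of 213 member transcripts with a read, 124 were tested, and 4 were called higher and 21 lower, from 20 genes; over all 11699 tested transcripts 16.9% were called, 8.68% higher and 8.22% lower. Protein-coding transcripts made up 22 of the 25 called, and the other 3 were the retained-intron transcripts Atp5k-203 and Uqcrc1-204 and the processed transcript Uqcr10-203. In Atp5k and Uqcr10 the protein-coding form and a non-coding form were both called lower: Atp5k-201 and Atp5k-203 had log2 fold changes of -0.37 and -0.28, and Uqcr10-201 and Uqcr10-203 had -0.30 and -0.19. Protein-coding transcripts took 90.8% of member reads in cold mice and 90.9% in ctrl mice. Over all mice this share was far lower in a few members, such as Uqcr10 (35.8%), Atp5k (44.0%) and Uqcrh (48.7%). Transcript usage was tested in 37 member genes with edgeR's diffSpliceDGE and 0 were called, with 1 at an unadjusted p under 0.05 (Cycs, adjusted p = 0.616); over all 2568 genes with this test 0.195% were called and 2.8% had an unadjusted p under 0.05.

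Atp5c1 has a known muscle-type mRNA that lacks 1 short exon near its 3′ end, and this exon was looked at after the values of its transcripts had been seen. The exon is exon 9 of the annotation, 37 nt, at chr2:10056770-10056806 on the minus strand of GRCm38. It is shown in capitals between 12 flanking bases on each side.
Atp5c1 exon 9: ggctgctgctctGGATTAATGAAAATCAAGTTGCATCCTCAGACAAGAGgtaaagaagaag
Among reads on transcripts that decide the exon, the share without it was 9.7, 9.4 and 9.44% in cold mice and 11.6, 10.9 and 11.1% in ctrl mice. Every cold mouse was lower (9.51 ± 0.162% in the cold and 11.2 ± 0.354% in ctrl, SD, n = 3 each; exact two-sided permutation p = 0.1), and the usage test did not call the gene (adjusted p = 1.0). The form without the exon, Atp5c1-201, had a log2 fold change of -0.57 and the main form with it, Atp5c1-203, -0.38, and both were called lower. The second form with the exon, Atp5c1-202, was not called (log2 fold change -0.11, adjusted p = 0.538). Its share of the gene's reads was 23.3, 24.2 and 26.5% in cold mice and 22.1, 21 and 20.3% in ctrl mice, higher in every cold mouse, while the share of Atp5c1-203 overlapped between the groups.

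Genes around these subunits were read from lists. Of the 6 mitochondrially encoded subunits of complexes III to V, 4 were called lower and 0 higher (66.7%, against 20.0% of all tested genes), and mt-Co1 and mt-Atp8 were not called. mt-Cytb, the cytochrome b of complex III, had 32770, 34100 and 32890 CPM in cold mice and 50310, 45770 and 53130 CPM in ctrl mice and fell 1.5-fold (log2 fold change -0.58, edgeR adjusted p = 4.22e-09). mt-Atp6 fell 1.42-fold, mt-Co2 1.38-fold and mt-Co3 by 0.40 on the log2 scale. Nuclear copies with 100.0% identity over 678, 681 and 783 nt, Gm10925, Gm28661 and Gm28437, had 86115, 41421 and 55530 reads, so the split of reads for these genes is uncertain. The median log2 fold change was -0.43 over the mitochondrially encoded subunits, beside -0.09 over the nuclear members. Of the 36 nuclear subunits of complex I, 14 were called lower and 0 higher, with a median of -0.13. Of 78 mitochondrial ribosomal proteins, 9 were called lower and 9 higher, with a median of -0.06. The share called was 38.9% for complex I, and for the ribosomal proteins it was 23.1%, near the 20.0% over all tested genes.

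Assembly factors of these complexes were called in both directions. For complex IV, 6 of 25 tested were called higher and 3 lower (36.0%, against 20.0% of all tested genes), with a median of -0.04. Sco2, a copper chaperone of complex IV, had 42.0, 37.6 and 29.1 CPM in cold mice and 16.8, 14.8 and 22.3 CPM in ctrl mice and rose 2.01-fold (log2 fold change 1.01, SE 0.19, edgeR adjusted p = 0.000161). Coa7, another complex IV assembly factor, rose 1.79-fold and Cox10, which farnesylates heme, 1.62-fold (edgeR adjusted p = 2.17e-05 and 0.000405). Hccs, which attaches heme to cytochrome c and so makes the Cycs product functional, had 61.4, 79.2 and 74.0 CPM in cold mice and 49.2, 34.2 and 42.8 CPM in ctrl mice and rose 1.7-fold (edgeR adjusted p = 0.000106). For complex III, 2 of 7 (28.6%) were called higher, Hccs and Ttc19, which clears fragments of the Rieske protein (1.37-fold, edgeR adjusted p = 0.0315). For complex V, 1 of 6 (16.7%) was called, Fmc1, an assembly factor described in yeast, which fell 1.43-fold (edgeR adjusted p = 0.000169). Outside the symbol rule, the subunits Ndufa4 and Usmg5 and the ATP synthase inhibitor Atpif1 were not called, at -0.16, -0.05 and -0.15.

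Of 12 tested transcriptional regulators of respiratory chain genes, 4 were called higher and 1 lower (41.7%, against 20.0% of all tested genes). Ppargc1a, the coactivator known for driving mitochondrial biogenesis, had 127, 126 and 137 CPM in cold mice and 21.4, 26.0 and 29.3 CPM in ctrl mice and rose 5.03-fold (edgeR adjusted p = 1.19e-14). Esrrg, an estrogen-related receptor, rose 2.36-fold, and Tfam, which packages and transcribes mitochondrial DNA, rose 1.41-fold (edgeR adjusted p = 0.000522 and 0.008). Esrra rose 1.26-fold (edgeR adjusted p = 0.0201). The 1 called lower was Tfb2m, which fell 1.27-fold (edgeR adjusted p = 0.0345). Nrf1 and Gabpa, whose motifs were counted above, were not called, at 0.23 and 0.09.

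Other cell types were read from their markers. Brown adipocyte markers summed to 37570 to 39730 CPM in cold mice and 27000 to 30100 CPM in ctrl mice, with 5 of 12 called higher and 1 lower (50%, against 20.0% of all tested genes). Most of that sum was Fabp4, a general adipocyte gene (19570 ± 1000 CPM in cold mice, 13730 ± 828 CPM in ctrl mice), and Ucp1. Prdm16, Ebf2 and Zic1, regulators of brown fat identity, were at 17.4, 31.9 and 10.4 CPM in cold mice and 23.4, 35.1 and 9.40 CPM in ctrl mice (means of 3 mice) and were not called. Endothelial markers summed to 256 to 260 CPM in cold mice and 204 to 217 CPM in ctrl mice, with 1 of 6 tested called higher (16.7%). White adipocyte markers summed to 125 to 151 CPM in cold mice and 66.0 to 105 CPM in ctrl mice, with 2 of 4 tested called higher (50%). Macrophage markers (81.2 to 113 CPM in cold mice, 61.0 to 83.7 CPM in ctrl mice) and erythroid markers (1910 to 2843 CPM in cold mice, 1574 to 2915 CPM in ctrl mice) had no call. Fibroblast and preadipocyte markers summed to 201 to 257 CPM in cold mice and 229 to 277 CPM in ctrl mice, with 2 of 5 tested called lower (40.0%). Of the 7 white adipocyte marker names, Hoxc9 and Hoxc10 had no row in the counts. All other markers of these lists had reads. The part of these cell types in the member values was not tested.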

How the data were processed

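The deposited tables hold counts of reads per transcript, whole numbers with no normalization, with 1 table per flow cell; per the submitters' processing notes the authors used minimap2 and the build GRCm38. The minimap2 version, annotation release, strand use and treatment of ambiguous reads were not given in the sources used here. Identifiers were matched to GENCODE M21, where 172 unmatched transcripts (0.084% of 11789059 reads) were left out.

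Counts were summed over both flow cells and over genes. The tests used edgeR 4.0.16 in R 4.3.3 (TMM, filterByExpr, robust glmQLFit, glmQLFTest; diffSpliceDGE for usage), with all 6 mice in the fit, Benjamini-Hochberg adjustment over all tested features and calls at 0.05; adjusted p-values are from edgeR unless another tool is named. DESeq2 1.42.0 was an alternative. CPM use TMM-scaled library sizes. Shares of isoforms were compared by exact permutation over mice (scipy 1.17.1). Copies were sought with minimap2 2.31-r1302 (at least 200 nt at 95% identity). Figures used matplotlib 3.10.9. Scripts were tested on simulated counts, in genes drawn from all depths. The gene test recovered 8.2% of 1.3-fold, 37% of 1.5-fold, 66.7% of 2-fold and 98% of 3-fold changes, with 11 false calls.

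The members, lists and tests were chosen with earlier results of these data known. Named members were up to 6 called genes per direction by size of change, the isoform families, 10 core subunits and genes called for usage, with up to 3 called genes of each list that is not a cell type list. Uqcr10, Cox6c, the uncalled members, Esrra, Tfb2m and the Atp5c1 exon were added after their values were seen.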

Additional observations from a re-analysis of the deposited data

How the results depend on the processing

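No paired analysis was possible because the mouse numbers of cold mice (4, 11 and 15) and ctrl mice (2, 9 and 14) differ. Against 4 members called higher and 15 lower, DESeq2 called 2 and 9 (10.7% of all genes), flow cell 2 alone called 2 higher, and in both the 2 were Cycs, which kept its call, and Atp5g1, which was not among the 4; under DESeq2 the adjusted p was 0.201 for Cox4i2, 0.0619 for Sdhaf4 and 0.102 for Atp5mpl, and the skeletal muscle covariate gave 9 lower. Leaving out 1 mouse gave 2 to 4 higher, with 2 without ctrl mouse 9, and 10 to 15 lower. Member transcripts, 4 higher and 21 lower, had 1 higher on flow cell 2 alone, and 2 to 5 higher and 13 to 17 lower with 1 mouse left out, the 13 without ctrl mouse 14. On flow cell 2 alone the difference in share, cold minus ctrl, was -0.0206 percentage points for Cox6b2 (0.0548 on both flow cells) and 3.67 for Atp5g3 (0.895). The cause was not tested. No called member changed sign under any of the 15 alternatives that gave it a value. Cox4i2, at 33 reads in ctrl mice, and Cox6b2, at 32, are limited by depth.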
